A study of Mus musculus with 2 samples.

Results

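The TNF superfamily ligands and their receptors were 38 of the 19070 genes measured in each library: 17 ligands and 21 receptors. They were taken by name: every symbol that starts with Tnfsf or Tnfrsf, and Tnf, Lta, Ltb, Ltbr, Fas, Fasl, Cd40, Cd40lg, Cd27 and Cd70, with Tnfrsf4, Tnfrsf9 and Tnfrsf18 left out. The data are 2 single-cell RNA libraries from mice that carried LLC (Lewis lung carcinoma) cells, an established murine cancer line, as tumours under the skin. One library, called control here, came from tumours given an IgG2a isotype antibody. The other came from tumours given an anti-PD-1 antibody, which blocks a checkpoint receptor on T cells, and was collected 7 days after treatment. The series text calls the control untreated, the sample labels name the isotype antibody, and no source gives the number, strain or age of the mice. With 1 library per group there is no replicate and no test: intervals given here are exact 95% intervals of the UMI counts (unique molecular identifiers, each marking 1 captured molecule) and cover counting error only.

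TNF superfamily ligands are mostly trimeric proteins on the cell surface or shed from it, and each binds 1 or several receptors on the same or other cells. Some receptors carry a death domain (Fas, Tnfrsf1a, Tnfrsf10b) that can recruit Fadd and caspase-8, while others (Cd40, Cd27, Ltbr, Tnfrsf1b, Tnfrsf11a) bind TRAF adaptors that lead to NF-kB. In tumours the family is known for T cell help and costimulation, killing through Fasl and Tnfsf10, and inflammation driven by Tnf.

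After filtering, control held 8395 cells and 113219015 UMIs, and anti-PD-1 held 9422 cells and 115405551 UMIs. Cells were put into classes by UMIs of marker genes, and named only after those markers, as "X-like". The LLC-like class, set by Hmga2, Igf2bp1, Igf2bp2 and Wnt7b, held 3355 control and 4777 anti-PD-1 cells. There were 942 and 1012 macrophage-like, 735 and 804 monocyte-like, 258 and 428 fibroblast-like, 152 and 113 neutrophil-like, 155 and 69 T cell-like, 75 and 102 NK cell-like and 53 and 83 dendritic cell-like cells. Cells with the markers of more than 1 class (1234 and 1135) and cells with too few marker UMIs (1354 and 850) were set aside. Over all cells the T cell markers summed to 36.4 CPM (counts per 1e+06 UMIs) in control against 10.0 in anti-PD-1, endothelial markers to 161 against 84.8, and erythroid markers to 745 against 62.1. Clustering of all cells split the LLC-like cells unevenly by library, with 1 cluster of 97 control and 1547 anti-PD-1 cells and another of 1320 and 384. LLC markers reached 10.8% to 29.8% of their LLC-like level in the other classes. Setting aside cells with the markers of more than 1 class limits these shares. They are therefore not a full measure of the background for a gene abundant in LLC-like cells.

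The ligand genes Ltb, Tnf and Lta stand next to each other on mouse chromosome 17 (GRCm38): Ltb lies at 35194439 to 35196320 on the plus strand, Tnf at 35199381 to 35202007 and Lta at 35203165 to 35205351, both on the minus strand. They are shown because the 3 ligand genes are neighbours. Ltb and Lta were highest in T cell-like cells in both libraries. Tnf was highest in macrophage-like cells in control and in T cell-like cells, on 10 UMIs, in anti-PD-1, in neither case with its interval apart from that of monocyte-like cells. The 250 bases before each RefSeq start (GRCm38.p6) are printed from 5′ to 3′ on the gene's own strand, with matches to the NF-kB (kappa B) motif and to TATAAA in capitals, both searched on both strands and not overlapping here. For Ltb the last 68 bases, which lie inside the gene as GENCODE annotates it, were left out. The printed windows are chr17:35194257-35194438 for Ltb, chr17:35202008-35202257 for Tnf and chr17:35205352-35205601 for Lta.
Ltb: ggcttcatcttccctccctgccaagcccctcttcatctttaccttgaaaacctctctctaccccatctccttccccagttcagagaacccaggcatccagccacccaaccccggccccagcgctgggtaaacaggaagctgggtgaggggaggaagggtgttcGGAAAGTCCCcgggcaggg
Tnf: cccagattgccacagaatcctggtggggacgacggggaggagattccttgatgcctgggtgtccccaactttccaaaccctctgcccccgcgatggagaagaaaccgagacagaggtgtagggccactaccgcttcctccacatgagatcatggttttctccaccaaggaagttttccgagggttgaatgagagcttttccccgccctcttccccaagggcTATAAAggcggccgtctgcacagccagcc
Lta: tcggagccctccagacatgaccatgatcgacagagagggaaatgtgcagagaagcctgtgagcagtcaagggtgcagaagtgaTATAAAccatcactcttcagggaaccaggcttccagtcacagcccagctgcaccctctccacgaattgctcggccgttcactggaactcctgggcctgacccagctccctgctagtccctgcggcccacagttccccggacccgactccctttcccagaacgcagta
The capitals in Ltb mark 1 match to the kappa B motif and those in Tnf and Lta mark TATAAA. Promoters of 28 of the 38 genes were matched by symbol, and 3 of these (Ltb, Tnfrsf25 and Tnfrsf8) held the kappa B motif, which is 9.68% of their 31 entries against 7.25% of all 32851 entries of the same length. TATAAA was in 12.4% of all entries. A match is a description of the letters in the window and was not tied to binding.

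Over all cells, the summed family was at the same level in both libraries. The 21 receptors summed to 1111 CPM (1105 to 1117) in control and 1112 (1106 to 1118) in anti-PD-1. The 17 ligands summed to 144 CPM (142 to 146) and 146 (144 to 148). Single genes differed: among the 29 genes with at least 100 UMIs over both libraries (12 ligands and 17 receptors), the ratio was below that of the median gene for 17 and above it for 12. Their median log2 ratio of anti-PD-1 over control was -0.36, against -0.03 over all 12727 genes with as many UMIs.

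**Figure D1:**
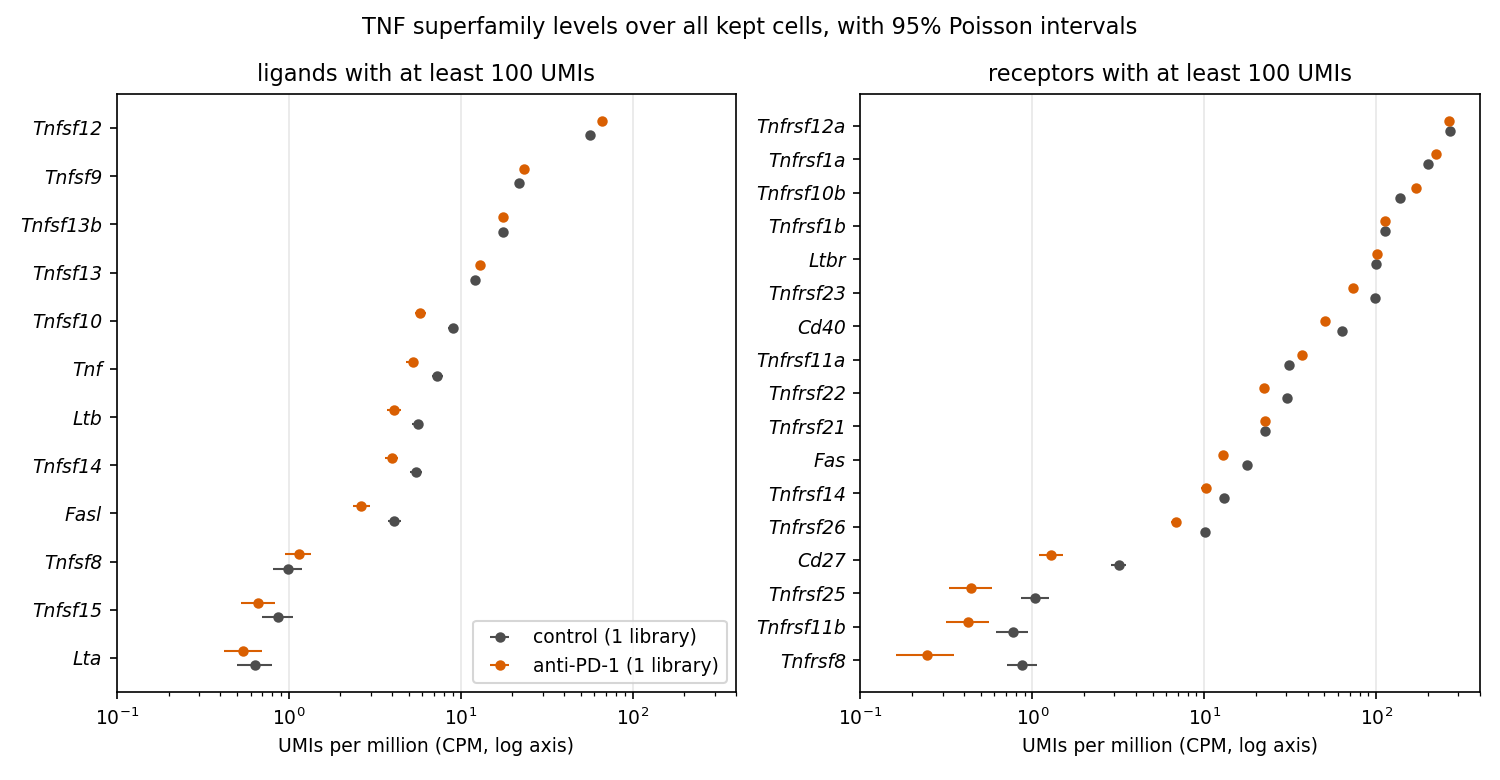
Level of the 12 ligands (left) and 17 receptors (right) with at least 100 UMIs over all kept cells, in CPM on a log axis; points are the 2 libraries and bars the 95% Poisson intervals. Cd27, Tnfrsf25 and Tnfrsf8 lay lower in anti-PD-1, while Tnfrsf12a, Tnfrsf1b and Ltbr nearly coincided; levels of different genes also depend on their probes.

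No member was more than 2-fold higher in anti-PD-1 over all cells, against 0.566% of all genes, and 3 of 29 were more than 2-fold lower, against 4.88% of all genes. All 3 were receptors: Tnfrsf8 (CD30), Cd27, a costimulatory receptor of T and NK cells, and Tnfrsf25 (DR3), the receptor of Tnfsf15. Cd27 had 3.17 CPM in control against 1.29 in anti-PD-1, a log2 ratio of -1.30 (-1.58 to -1.02). Tnfrsf25 had 1.04 and 0.44 CPM (log2 ratio -1.24, -1.74 to -0.75), and Tnfrsf8 0.87 and 0.24 CPM (-1.85, -2.51 to -1.23). Each was a scarce transcript, and T cell and endothelial marker UMIs were also fewer in anti-PD-1. T cell-like cells held 94 of the 359 control and 21 of the 149 anti-PD-1 UMIs of Cd27. They held few UMIs of the other receptors: 3 of 118 and 5 of 51 for Tnfrsf25, and 0 of 99 and 1 of 28 for Tnfrsf8. Endothelial-like cells (59 control and 31 anti-PD-1 cells) held 18 and 2 UMIs of Tnfrsf25 (23.1 and 8.72 CPM) and 13 and 5 of Tnfrsf8 (16.7 and 21.8 CPM). Among the other scarce genes, Tnfrsf11b had 87 and 49 UMIs over all cells (log2 ratio -0.86, -1.39 to -0.33). In bulk sums such as these, fewer cells of a type and less RNA per cell cannot be told apart, and the part that cell numbers play in these 3 ratios was not tested.

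Other members differed by less than 2-fold, in both directions. Of the ligands, Tnfsf10 had 1019 and 673 UMIs (-0.63), and Tnf was at 7.33 and 5.25 CPM (-0.48), Ltb at 5.63 and 4.10 (-0.46) and Tnfsf14 at 5.50 and 3.97 (-0.47). The ligands Tnfsf9, at 21.9 and 23.3 CPM, Tnfsf13b, at 17.6 and 17.8, and Tnfsf13, at 12.1 and 12.9, were near level, and Tnfsf12 had a ratio of 0.24 (0.19 to 0.29). Lower receptors in anti-PD-1 were Tnfrsf26 at 10.2 and 6.85 CPM (-0.57), Fas at 17.6 and 12.9 (-0.45), Tnfrsf22 at 30.4 and 22.3 (-0.45), Tnfrsf23 at 98.6 and 73.4 (-0.42), Tnfrsf14 at 13.1 and 10.2 (-0.36) and Cd40 at 63.6 and 50.7 (-0.33). Higher receptors were Tnfrsf10b at 137 and 170 CPM (0.32, 0.29 to 0.35), Tnfrsf11a at 31.2 and 37.0 (0.25) and Tnfrsf1a at 199 and 224 (0.17), while Tnfrsf21 was at 22.6 and 22.4. The interval of each gene given here with a ratio leaves out 0.

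A further 9 genes had fewer than 100 UMIs over both libraries and are given by their UMIs alone, control first. The ligand genes were Tnfsf11 with 53 and 26 UMIs, Tnfsf4 with 46 and 41, Cd40lg with 44 and 24, Tnfsf18 with 38 and 15 and Cd70 with 22 and 9. The receptor genes were Tnfrsf17 with 52 and 34, Tnfrsf13c with 43 and 28, Tnfrsf13b with 22 and 1 and Tnfrsf19 with 17 and 0. All 9 had more UMIs in control, but the share of all genes below 100 UMIs that did was not counted. Of genes with at least 100 UMIs, 4.88% were more than 2-fold lower in anti-PD-1 and 0.566% more than 2-fold higher. Among the 9, Tnfrsf17 (BCMA), Tnfrsf13b (TACI) and Tnfrsf13c (BAFF receptor) are receptors of B cells and plasma cells. Only 9 control and 3 anti-PD-1 cells passed the B cell markers. These cells held 0 UMIs of Tnfrsf17 and of Tnfrsf13b in either library, and 1 and 0 of Tnfrsf13c. Summed over all cells, the B cell markers were level, at 12.91 CPM (control) against 12.95 (anti-PD-1). The part of B cells in these counts was not tested.

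Ligands were split among immune classes, and none was highest in LLC-like cells. Among the 8 classes with enough cells, 20 of the 29 genes had their highest level in the same class in both libraries. For 8 of these the interval lay apart from that of the next class in both libraries. The share of all genes that did either was not counted, so these counts do not set the family apart. Ltb, which forms the membrane lymphotoxin with Lta, was highest in T cell-like cells, at 343 CPM (276 to 422) in control against 1153 (952 to 1384) in anti-PD-1, above NK cell-like cells at 99.9 and 171 CPM. Lta was also highest in T cell-like cells, with only 4 and 11 UMIs there. Fasl, the ligand of Fas on killer cells, had 306 (228 to 401) and 444 CPM (356 to 547) in NK cell-like cells and 274 and 371 CPM in T cell-like cells, intervals that overlap in both libraries. In LLC-like cells Ltb and Fasl were at or below 2.58 CPM.

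Tnfsf12 (TWEAK) and its neighbour Tnfsf13 (APRIL), which lie 465 bases apart on chromosome 11, were both highest in macrophage-like cells. Tnfsf12 stood at 116 CPM (105 to 128) there in control, 189 (177 to 202) in anti-PD-1, and at 47.2 and 56.7 CPM in LLC-like cells. Tnfsf13 stood at 84.4 and 110 CPM in macrophage-like cells and at 5.55 and 5.86 CPM in LLC-like cells. So both ligands shared a leading class, while only Tnfsf12 was also abundant in LLC-like cells. Tnf was at 59.2 and 40.4 CPM in macrophage-like and 48.9 and 43.6 in monocyte-like cells, and at 2.62 and 1.47 CPM in LLC-like cells. Its 10 UMIs in T cell-like cells of anti-PD-1 gave 100 CPM (48.1 to 184).

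Other ligands had a leading class with few UMIs behind it. Tnfsf14 (LIGHT), which binds Ltbr and Tnfrsf14, was highest in neutrophil-like cells with 16 and 30 UMIs (98.2 and 231 CPM). Tnfsf9 (4-1BB ligand) was highest in dendritic cell-like cells with 13 and 17 UMIs (93.6 and 87.3 CPM). Tnfsf8 (CD30 ligand) was highest in NK cell-like cells with 6 and 17 UMIs. Tnfsf10 (TRAIL), a death ligand, had 29 and 10 UMIs in T cell-like cells (111 and 100 CPM) and spread over the other classes at 3.82 to 29.4 CPM. Tnfsf13b (BAFF), a survival factor of B cells, was at 18.6 CPM (17.6 to 19.6) and 19.5 (18.6 to 20.5) in LLC-like cells, with intervals above those of macrophage-like cells, at 6.45 (4.04 to 9.77) and 7.90 (5.53 to 10.9). Its higher levels in T cell-like cells of control and neutrophil-like cells of anti-PD-1 rested on 8 and 5 UMIs. Tnfsf15 (TL1A) had 98 and 77 UMIs over all cells (0.87 and 0.67 CPM) and no class that led in both libraries.

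**Figure D2:**
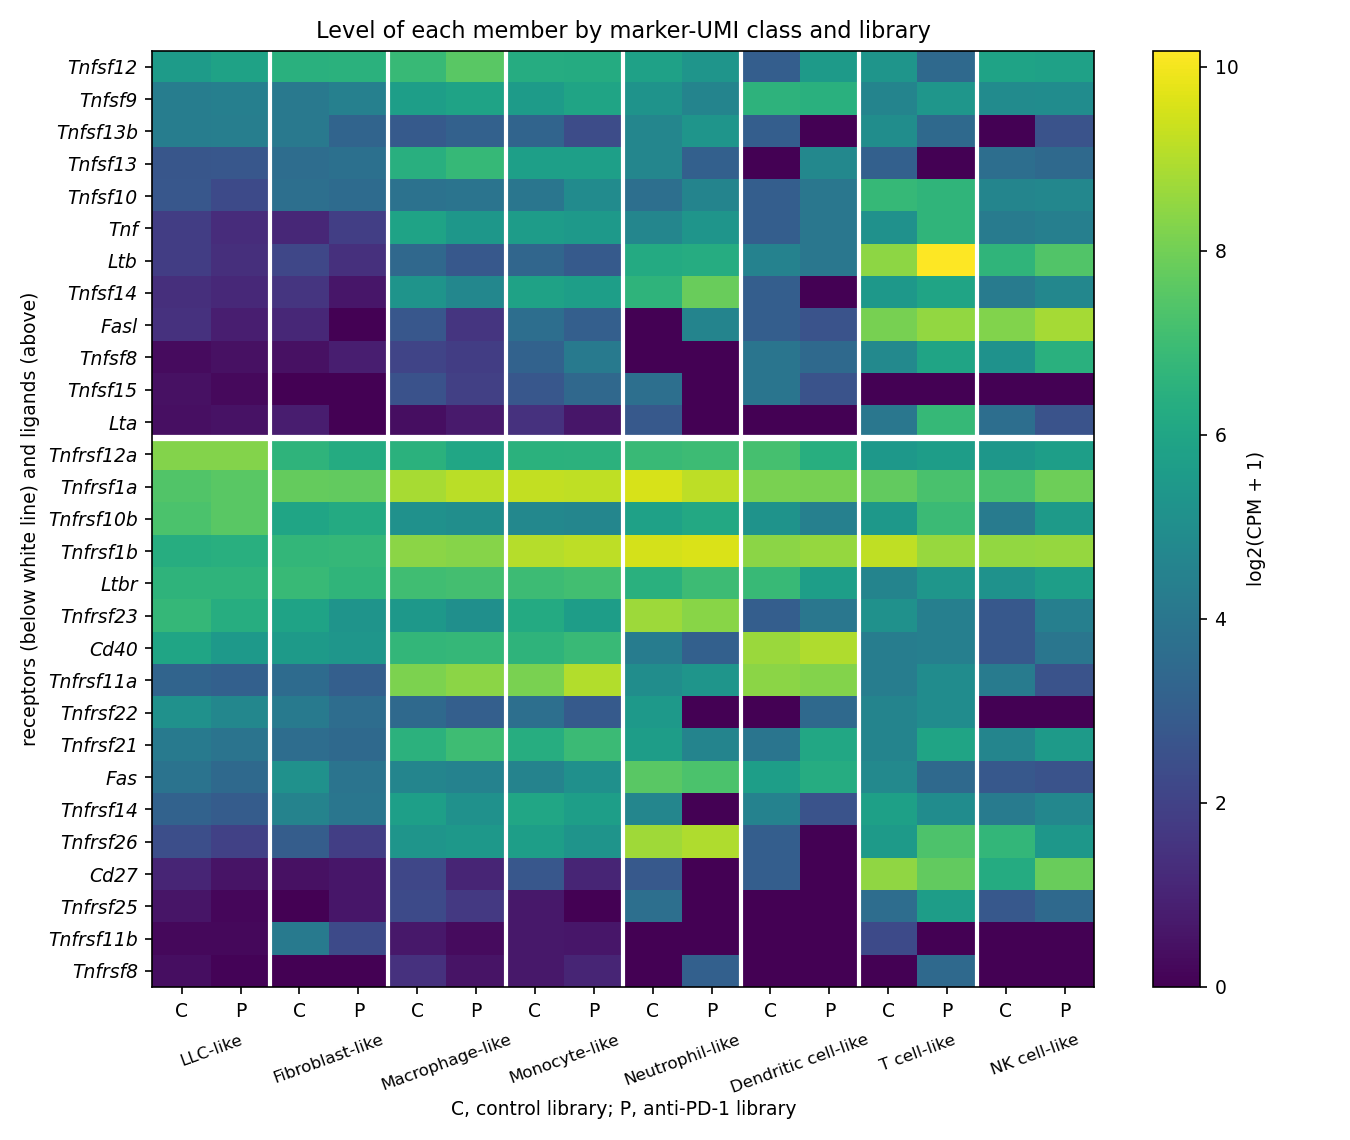
Heat map of log2(CPM + 1) for the 29 genes with at least 100 UMIs (rows, ligands above the white line and receptors below it) in 8 marker-UMI classes (column pairs: C, control; P, anti-PD-1). Ltb, Fasl and Cd27 are brightest in the T cell-like or NK cell-like columns, Tnfrsf26 and Tnfrsf23 in the neutrophil-like columns, and Tnfrsf12a and Tnfrsf10b in the LLC-like columns.

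Tnfrsf12a and Tnfrsf10b were the 2 receptors highest in LLC-like cells in both libraries. Tnfrsf12a (Fn14), the receptor of Tnfsf12, was at 309 CPM (305 to 313) in control, 307 (303 to 311) in anti-PD-1, and apart from the next class in both. With clusters in place of the marker classes, Tnfrsf12a was at 308 and 305 CPM in the LLC clusters and at 247 and 301 CPM in the fibroblast cluster. Tnfrsf10b (the mouse TRAIL receptor with a death domain) was at 155 CPM (153 to 158) and 191 (189 to 194), apart from the next class in control but not in anti-PD-1, where 12 UMIs put T cell-like cells at 120 CPM (62.1 to 210). In macrophage-like cells the level of Tnfrsf12a was 29% and 20.9% of that in LLC-like cells, and that of Tnfrsf10b 22.3% and 16.4%, beside 20.6% and 14.2% for the LLC markers. The share of Tnfrsf10b was thus near that of the LLC markers and the share of Tnfrsf12a above it. Cells of other classes with LLC markers above the cut were set aside, which limits the marker share but not these receptors. The comparison therefore cannot show how much of either is RNA from other cells, which was not tested.

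Tnfrsf1a and Tnfrsf1b are the receptors of Tnf. Tnfrsf1a, which carries the death domain, was at 603 and 590 CPM in monocyte-like, 743 and 571 in neutrophil-like, 453 and 562 in macrophage-like and 170 and 190 in LLC-like cells. Tnfrsf1b, which lacks it, was at 731 and 771 CPM in neutrophil-like, 526 and 571 in monocyte-like, 587 and 391 in T cell-like and 80.1 and 83.4 in LLC-like cells. Among the 8 classes Tnfrsf1b was lowest in LLC-like cells in both libraries, while Tnfrsf1a was lowest in NK cell-like cells of control (153 CPM) and T cell-like cells of anti-PD-1 (150 CPM). In anti-PD-1 the intervals of neutrophil-like and monocyte-like cells overlap for Tnfrsf1a and are apart for Tnfrsf1b. Ltbr, the receptor of membrane lymphotoxin and Tnfsf14, was at 131 and 140 CPM in macrophage-like, 123 and 134 in monocyte-like, 115 and 101 in fibroblast-like and 96.8 and 97.2 in LLC-like cells. It was lower in the lymphoid classes, at 22.9 and 40.1 CPM in T cell-like and 35.3 and 50.4 in NK cell-like cells.

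Cd40, through which T cells license antigen-presenting cells, was highest in dendritic cell-like cells, at 396 CPM (298 to 516) and 493 (399 to 602). The cells among them with mature markers (30 and 46 cells) had 740 and 866 CPM. Macrophage-like cells had 104 and 108 CPM and LLC-like cells 61.7 and 44.1 CPM, so the receptor was also read in the class of the tumour markers. Tnfrsf11a (RANK), the receptor of Tnfsf11, was spread over the 3 mononuclear myeloid classes, at 286 and 342 CPM in macrophage-like, 282 and 505 in monocyte-like and 338 and 313 in dendritic cell-like cells, against 8.76 and 7.65 CPM in LLC-like cells. Tnfrsf21 (DR6), a death-domain receptor, was at 91.8 and 129 CPM in macrophage-like and 79.7 and 123 in monocyte-like cells. Tnfrsf14 (HVEM), which Tnfsf14 binds, was highest in monocyte-like cells at 64.6 and 50.4 CPM. The soluble decoy Tnfrsf11b (osteoprotegerin), which binds Tnfsf11, was highest in fibroblast-like cells with 43 and 14 UMIs.

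A group of 3 receptor genes are neighbours on chromosome 7 (GRCm38, minus strand): Tnfrsf26 at 143607659 to 143628722, Tnfrsf22 at 143634806 to 143649661 and Tnfrsf23 at 143665809 to 143685872. Tnfrsf26 and Tnfrsf23 were both highest in neutrophil-like cells in both libraries. Tnfrsf22 and Tnfrsf23 are known as decoy receptors of TRAIL. Tnfrsf26 was at 424 CPM (330 to 536) and 494 (380 to 631) in neutrophil-like cells, and at 4.47 and 2.88 CPM in LLC-like cells. Tnfrsf23 was at 405 CPM (313 to 516) and 324 (234 to 438) in neutrophil-like cells and at 108 and 79.9 CPM in LLC-like cells. Tnfrsf22 was at 34.2 and 25.4 CPM in LLC-like cells, and its 7 and 0 UMIs in neutrophil-like cells leave its leading class unsettled. The longest coding transcripts of Tnfrsf22 and Tnfrsf23 are identical at 93.6% of 1473 aligned bases, so UMIs could have been split between them and each value is uncertain. Fas was also highest in neutrophil-like cells, at 190 CPM (129 to 270) and 154 (94.2 to 238). The neutrophil-like class rested on 152 and 113 cells of low depth (162857 and 129629 UMIs in all).

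Within LLC-like cells, 23 of the 38 genes had at least 100 UMIs. None was more than 2-fold higher in anti-PD-1, against 0.884% of all genes there, and 2 were more than 2-fold lower, against 3.35% of all genes. The median log2 ratio was -0.29, against 0.00 over 11762 genes. Of the 3 most abundant receptors, Tnfrsf12a had a log2 ratio of -0.01 (-0.04 to 0.02), Tnfrsf1a 0.17 (0.13 to 0.20) and Tnfrsf10b 0.30 (0.27 to 0.34). Of the 3 most abundant ligands, Tnfsf12 had 0.26 (0.20 to 0.33), Tnfsf9 0.09 (-0.01 to 0.19) and Tnfsf13b 0.07 (-0.03 to 0.17). The receptors Cd40 (-0.48, -0.55 to -0.42), Tnfrsf23 (-0.44, -0.48 to -0.39), Tnfrsf22 (-0.43, -0.51 to -0.35), Tnfrsf26 (-0.63, -0.87 to -0.39) and Fas (-0.45, -0.58 to -0.32) lay lower in anti-PD-1, each by less than 2-fold. The death receptor Tnfrsf21 had a ratio of -0.29 (-0.41 to -0.18), which was 0.20 after thinning the cells to 1000 UMIs, and Fas was lower in 3 of 7 LLC-like clusters.

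The 2 genes past 2-fold in LLC-like cells were Cd27 (83 and 38 UMIs, log2 ratio -1.23) and Fasl (134 and 70 UMIs, -1.04), genes known from T and NK cells. In clusters named LLC, taken in place of the marker class, neither was past 2-fold (-0.97 for Cd27 and -0.57 for Fasl), and after thinning the ratio was -0.51 for Cd27 and 0.22 for Fasl. Cd27 in LLC-like cells was at 0.295% and 0.214% of its T cell-like level, and the T cell markers in LLC-like cells were at 0.339% and 0.0833% of theirs. Fasl was at 0.558% and 0.187% of its NK cell-like level, beside 1.14% and 0.963% for the NK cell markers. Tnf, with 206 and 124 UMIs and a log2 ratio of -0.83 (-1.17 to -0.51), was at 4.43% and 3.64% of its macrophage-like level, beside 2.32% and 1.32% for the macrophage markers. Its ratio was 0.81 after thinning and -0.15 with LLC-like clusters weighted equally, an alternative chosen after seeing the data. Cells that also passed the markers of an immune class had been set aside, which limits the marker percentages but not directly those of Cd27, Fasl and Tnf. The marker percentages are therefore no neutral measure, and the part of immune RNA in these low LLC-like readings was not tested.

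**Figure D3:**
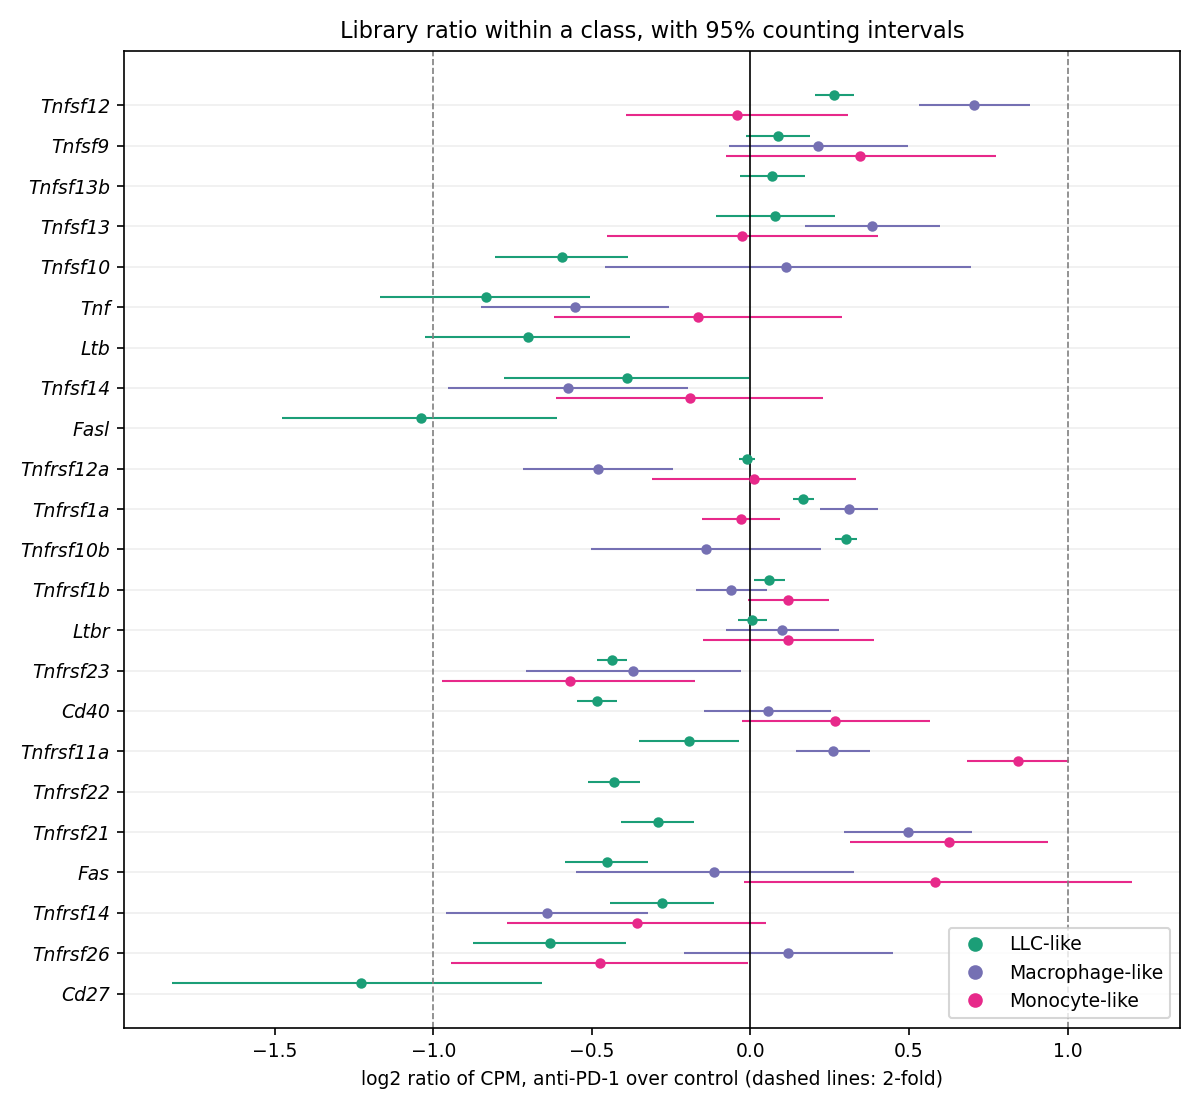
log2 ratio of CPM, anti-PD-1 over control, for each gene with at least 100 UMIs in LLC-like, macrophage-like or monocyte-like cells; bars are 95% counting intervals and dashed lines mark 2-fold. Tnfrsf21 and Tnfrsf11a lie left of 0 in LLC-like cells and right of it in both myeloid classes, and Tnfrsf23 lies left of 0 in all 3.

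Because the LLC-like cells of the libraries fell into different clusters, each ratio was also taken within the 7 clusters that held at least 50 LLC-like cells of each library; 1 of these, with 313 and 160 LLC-like cells, was led by the macrophage genes Cd72, Fcgr4 and C1qa. Tnfrsf22 was lower in anti-PD-1 in 7 of 7 clusters, with log2 ratios of -0.84 to -0.11, and Tnfrsf23 in 7 of 7, at -0.63 to -0.03. Tnfrsf1a was higher in 7 of 7, at 0.03 to 0.30, and Tnfrsf10b in 6 of 7, at -0.13 to 0.41. Cd40 was lower in 6 of 7, at -0.66 to 0.11. For these 5 receptors the direction of the pooled ratio recurred in all or all but 1 of the clusters. The clusters are parts of the same 2 libraries and not replicates, and the share of all genes with such recurrence was not counted. Some intervals include 0, as for Tnfrsf1a in the cluster led by Msln (0.03, -0.05 to 0.10) and Tnfrsf23 in that led by Id3 (-0.03, -0.21 to 0.14). Tnfrsf22 and Tnfrsf23 are also the near-identical pair described above.

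Other genes differed in direction between clusters. Tnfrsf12a, unmoved when pooled, ran from -0.37 in the cluster led by Atp13a4, Atg9b and Dmpk to 0.47 in the cluster led by Csf3, Lcn2 and Nos2, where it had 239 and 332 CPM. Fas ran from -1.37 (-1.89 to -0.88) in the cluster led by Id3, F2r and Ncam1, at 15.8 and 6.12 CPM, to 0.35, and was lower in 3 of 7 clusters. Tnfrsf21 was lower in 4 of 7, at -0.29 to 0.25. Tnfrsf11a was higher in 4 of the 5 clusters with enough UMIs. Its largest ratio, 0.71 (27.1 and 44.3 CPM), was in the cluster led by Cd72 and C1qa. The pooled ratio of -0.19 was not reached within these 5 clusters, where the lowest ratio was -0.003. Clusters with fewer UMIs of Tnfrsf11a were left out of this count. Tnfsf10 was concentrated in the cluster led by the interferon-stimulated genes Ifit1, Ifit3b and Ifit3, at 33.5 and 24.0 CPM, against 1.25 to 8.55 CPM in the other 3 clusters with enough UMIs, and had a ratio of -2.75 (-3.99 to -1.73) in the Id3 cluster.

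**Figure D4:**
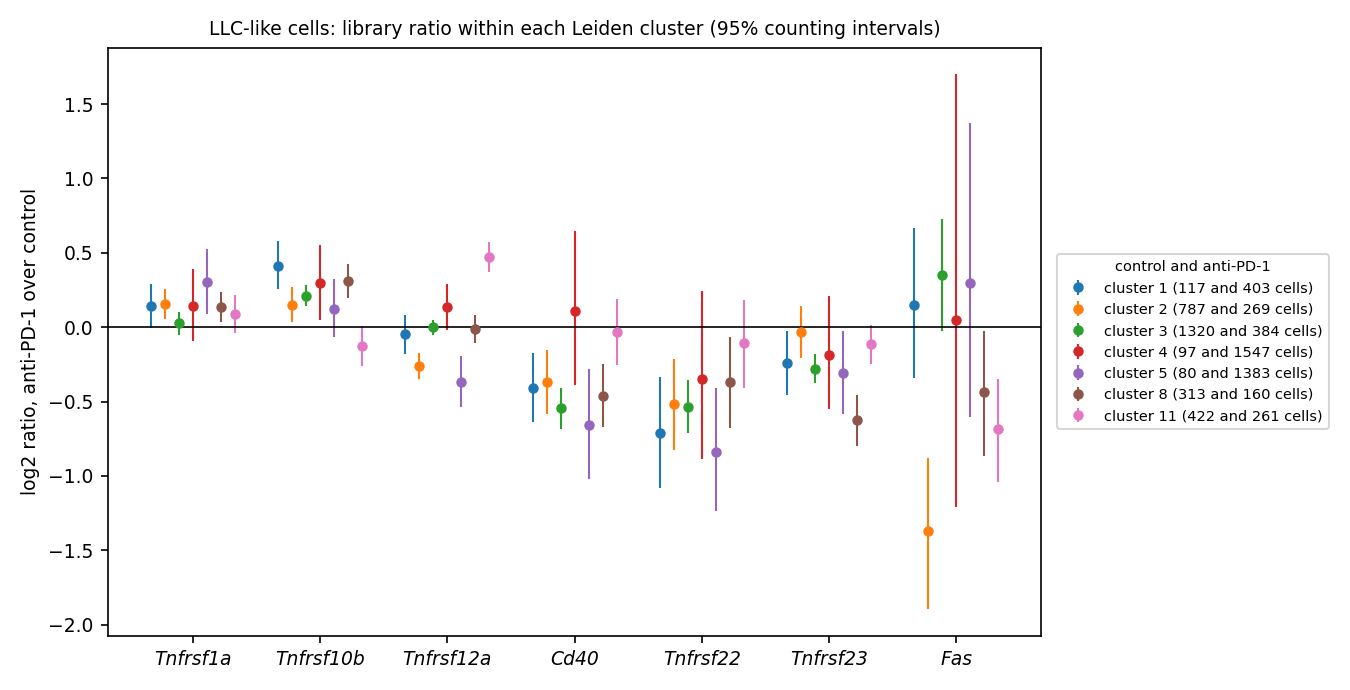
log2 ratio of anti-PD-1 over control in LLC-like cells within each of 7 Leiden clusters (colours, with the cells of each library in the key) for 7 receptors; bars are 95% counting intervals. The points of Tnfrsf22 and Tnfrsf23 all lie below 0 and those of Tnfrsf1a above it, while Fas and Tnfrsf12a lie on both sides.

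In macrophage-like cells 18 genes were measured, and 0 were more than 2-fold higher (0.738% of all genes were) and 0 more than 2-fold lower (1.64%). The median gene of this class had a log2 ratio of -0.12, so each ratio reads 0.12 higher relative to it. Tnfsf12 had the largest ratio, 0.71 (0.53 to 0.88), and its neighbour Tnfsf13 had 0.38 (0.17 to 0.60). Tnfsf9 was the remaining abundant ligand, at 51.3 and 59.5 CPM (0.21, -0.07 to 0.50). Tnf (-0.55, -0.85 to -0.26) and Tnfsf14 (-0.58, -0.95 to -0.20) lay lower, from 36.9 to 24.8 CPM for the latter. The ligands of this class thus divided, with TWEAK and APRIL higher and Tnf and LIGHT lower in anti-PD-1. Among receptors, Tnfrsf1a (0.31, 0.22 to 0.40), Tnfrsf11a (0.26, 0.14 to 0.38) and Tnfrsf21 (0.50, 0.30 to 0.70) were higher, Tnfrsf14 was lower, from 53.1 to 34.0 CPM (-0.64, -0.96 to -0.32), and Tnfrsf1b did not differ beyond counting error (-0.06, -0.17 to 0.05). Macrophage-like cells also differed in their summed macrophage markers, at 15289 and 23109 CPM, and the part of that in these ratios was not tested. The single cluster named macrophage held fewer cells than the class (405 and 458) and was led by Lyve1, Gas6 and Slc13a3. Within that cluster, Tnfsf12 had a ratio of 0.68 and Tnf of -0.52, while Tnfrsf11a was at -0.00. Thinning to 1000 UMIs per cell brought Tnfsf12 to 0.35.

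In monocyte-like cells 16 genes were measured, again with 0 more than 2-fold higher (0.414% of all genes) and 0 more than 2-fold lower (0.814%). Tnfrsf11a was at 282 CPM (257 to 308) in control against 505 (474 to 538) in anti-PD-1, the largest ratio of the class at 0.84 (0.68 to 1.004). Tnfrsf21 had 0.62 (0.31 to 0.94) and Tnfrsf23 -0.57 (-0.97 to -0.17). The most abundant receptors, Tnfrsf1a (-0.03, -0.15 to 0.09) and Tnfrsf1b (0.12, -0.01 to 0.25), and ligands, Tnfsf12 (-0.04), Tnfsf9 (0.35, -0.08 to 0.77) and Tnfsf14 (-0.19), did not differ beyond counting error. Tnfsf10, with 26 and 56 UMIs, had fewer than the 100 UMIs needed to be counted here. The interval of Tnfsf12 in monocyte-like cells, -0.39 to 0.31, lies below that in macrophage-like cells; the difference was not tested.

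Fibroblast-like cells had 11 measured genes, of which 0 were more than 2-fold higher (0.274% of all genes) and 1, Fas, more than 2-fold lower (2.39%). Fas had 34.2 and 14.3 CPM (log2 ratio -1.26, -1.79 to -0.75). The most abundant receptors did not differ beyond counting error, with Tnfrsf1a at 216 and 213 CPM, Ltbr at 115 and 101 and Tnfrsf1b at 104 and 107, nor did the ligands Tnfsf12, at 85.9 and 90.5 CPM, and Tnfsf9, at 16.3 and 20.6. Of the 11 ratios, 3 had intervals that left out 0, all lower in anti-PD-1. Tnfrsf12a was among these but did not keep its direction under every alternative. All receptors together summed to 819 and 713 CPM (-0.20, -0.28 to -0.12). The class was of more than 1 kind: 148 of its 258 control cells and 328 of its 428 anti-PD-1 cells lay in a cluster led by Ogn and Ptn that stayed unnamed, and 37 and 34 lay in the cluster led by Col1a2 and Prelp. LLC markers in fibroblast-like cells were at 22.9% and 21.4% of their LLC-like level. Fas was at 31.9 and 11.5 CPM in the Ogn and Ptn cluster (-1.47, -2.20 to -0.76), and at 40.6 and 24.7 CPM in the Col1a2 cluster (-0.71, -2.32 to 0.65). With all cells of the Col1a2 cluster in place of the class its ratio was -0.03, and with cells of the class thinned to 1000 UMIs it was -0.32. The 43 and 14 UMIs of Tnfrsf11b in fibroblast-like cells all came from the Col1a2 cluster, at 87.2 and 57.7 CPM (-0.60, -1.58 to 0.30), and the Ogn and Ptn cluster had 0 in both libraries.

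The lymphoid classes were too small for a count of genes past 2-fold and are given by level. Of the T cell-like cells, 119 of 155 in control and 19 of 69 in anti-PD-1 had a UMI of Cd8a or Cd8b1, so the class was of different make-up in the libraries and is split here. Ltb was at 262 CPM (55 UMIs) and 936 CPM (25 UMIs) in cells with CD8, and at 669 CPM (35 UMIs) and 1232 CPM (90 UMIs) in those without. It was higher in anti-PD-1 on both sides of that split, with log2 ratios of 1.84 (1.09 to 2.54) and 0.88 (0.30 to 1.49). Fasl was at 309 and 674 CPM in cells with CD8 and at 134 and 260 CPM in those without. Cd27 was at 367 and 412 CPM in cells with CD8 and at 325 and 137 CPM in those without, against 358 and 210 CPM in the whole T cell-like class; its ratio was 0.17 (-0.89 to 1.09) with CD8 and -1.25 (-2.54 to -0.04) without.

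NK cell-like cells had more of 2 of these genes in anti-PD-1. Cd27 was at 76.4 CPM (40.7 to 131) in control against 227 (166 to 303) in anti-PD-1, a log2 ratio of 1.57 (0.65 to 2.59) on 13 and 45 UMIs. Fasl had a log2 ratio of 0.54 (0.03 to 1.06) on 52 and 88 UMIs. Over all cells Fasl was at 4.12 and 2.65 CPM (-0.64, -0.85 to -0.43), lower in anti-PD-1 as Cd27 was. In the clusters named T cell (348 and 164 cells) and NK cell (150 and 199 cells), Cd27 was at 90.5 and 36.2 CPM and at 38.6 and 132 CPM, and Ltb was at 91.5 and 175 CPM in the T cell cluster. Fasl was at 75.9 and 62.5 CPM in the T cell cluster and at 138 and 335 CPM in the NK cell cluster. Tnfrsf12a was at 248 and 256 CPM in the T cell cluster and at 142 and 88.5 in the NK cell cluster, beside 308 and 305 in the LLC clusters. Clusters kept the cells with markers of more than 1 class. How far this changed the levels and ratios of Cd27, Ltb and Fasl was not tested.

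**Figure D5:**
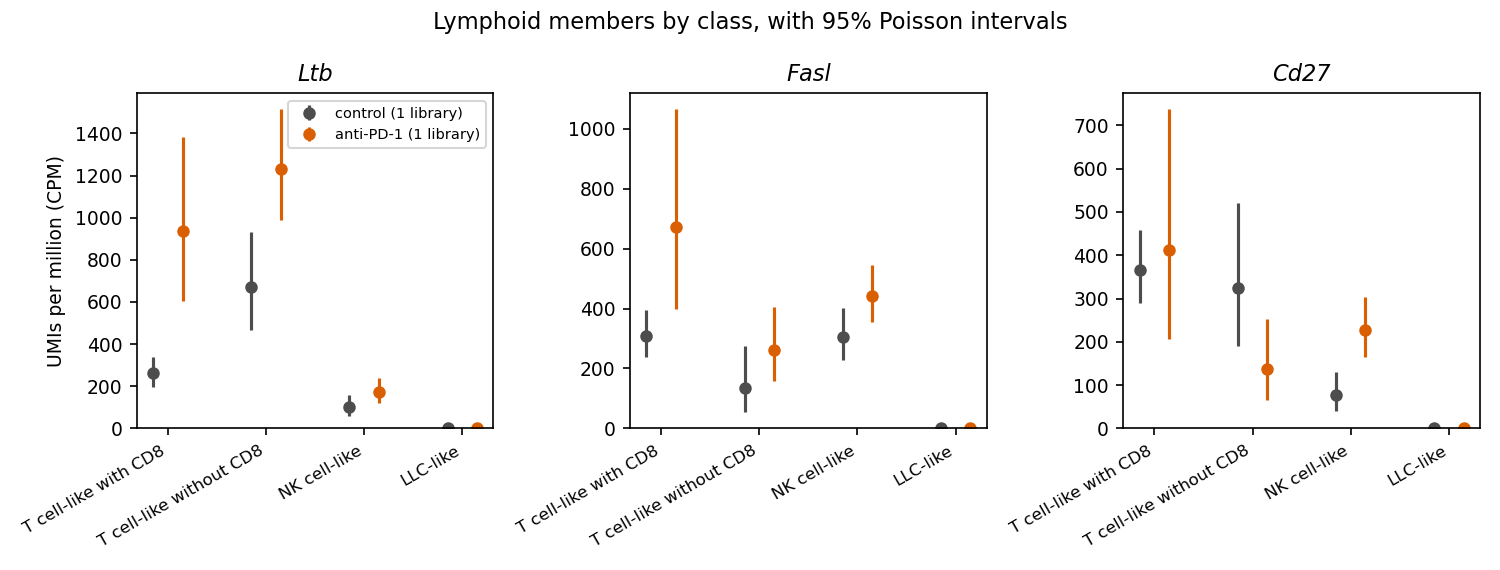
CPM of Ltb, Fasl and Cd27 in T cell-like cells with and without a CD8 UMI, NK cell-like cells and LLC-like cells; points are the 2 libraries and bars 95% Poisson intervals. Ltb lies higher in anti-PD-1 in both T cell-like groups, Cd27 in NK cell-like cells, and all 3 genes are near 0 in LLC-like cells.

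Of the genes that act below the receptors, none of the 25 adaptors and kinases was past 2-fold in LLC-like cells. Of all genes there, 3.35% were more than 2-fold lower and 0.884% more than 2-fold higher. These shares hold for each list of this paragraph, and lists this short would hold few such genes at those rates. Of the 25, 13 lay above and 12 below the median gene, with a median log2 ratio of 0.02. The largest ratios in size among them were those of Ripk3, a kinase of necroptosis, at 3.03 and 1.70 CPM (-0.84), the adaptor Fadd at 58.1 and 44.7 (-0.38), Cflar, the inhibitor of caspase-8, at 69.1 and 55.4 (-0.32), Ikbkg, Casp8 at 55.7 and 46.7 (-0.25) and Traf5. Ikbkg, the regulatory subunit of the IkB kinase, was at 45.0 and 54.1 CPM (0.26) and Traf5 at 41.8 and 49.4 (0.24). Of the 15 NF-kB factors and inhibitors none was past 2-fold, with a median of -0.12 in LLC-like cells. Nfkbia, the inhibitor that NF-kB itself induces, was at 325 and 245 CPM (-0.41, -0.43 to -0.38). Of the 6 sheddases and their partners, which release ligands and receptors from the membrane, none was past 2-fold; Adam10 had the largest ratio in LLC-like cells, at 159 and 201 CPM (0.34, 0.31 to 0.37), and Adam17, which sheds Tnf, 138 and 149 CPM (0.11).

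NF-kB target genes lay on both sides. In LLC-like cells 1 of 17 measured was more than 2-fold lower, Cxcl5 (88 and 39 UMIs), against 3.35% of all genes, and 0 more than 2-fold higher, against 0.884%, with a median of 0.15. Mmp3 was at 285 and 523 CPM (0.87, 0.85 to 0.90) and Vcam1 at 49.9 and 76.0 (0.61), while Icam1 was at 9.94 and 5.91 (-0.75) and Cxcl2 at 42.9 and 26.0 (-0.72). In macrophage-like cells 2 of 13 were more than 2-fold lower, against 1.64% of all genes: Ptgs2, at 260 and 90.4 CPM (-1.52, -1.70 to -1.35), and Vcam1, at 127 and 50.9 (-1.32, -1.55 to -1.09). Ccl2 was higher there, at 1491 and 2758 CPM (0.89, 0.84 to 0.93). In monocyte-like cells 1 of 11 was more than 2-fold lower, against 0.814% of all genes, again Ptgs2, at 948 and 402 CPM (-1.24, -1.36 to -1.11), so Ptgs2 was lower in both phagocyte classes while Ccl2 was higher in both (0.46 in monocyte-like cells). In fibroblast-like cells 5 of 14 were more than 2-fold lower, against 2.39% of all genes: Cxcl5, Il6, Icam1, Tnfaip6 and Ptgs2. Within the Col1a2 cluster the log2 ratio was -4.34 for Cxcl5 (288 and 7 UMIs) and -2.08 for Il6 (155 and 18 UMIs), and Icam1 was at 132 and 66.0 CPM (65 and 16 UMIs), while the ratio was -0.25 for Tnfaip6 and -0.06 for Ptgs2.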

How the data were processed

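The authors deposited raw UMI counts, with no normalization, in a matrix of genes by cells. Per the labels' protocols a GEM-X Flex kit, whose probes each target 1 gene, was used, although a 3' protocol is named too; levels of different genes therefore also reflect their probes. The submitters' processing notes name Cell Ranger 7.0.1 and mm10, while the matrix headers name Cell Ranger 9.0.1.

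Cells needed 300 detected genes and no more than 20% mitochondrial UMIs (8395 of 8441 in control, 9422 of 9423 in anti-PD-1). The median was 7473 and 8744 UMIs per cell, and 107 barcode sequences occurred in both libraries. A class other than LLC-like needed 3 marker UMIs from 2 markers and 1000 CPM of its markers, LLC-like cells 3 UMIs and 500 CPM, and phagocytes 2000 CPM, split at a macrophage over monocyte ratio of 3. These thresholds were set after looking at marker levels; 685 control and 679 anti-PD-1 cells lay between 400 and 600 CPM of LLC markers. No doublet caller was run. Cells of more than 1 class were set aside from the marker classes but not from the clusters. Counts were summed per library and class and scaled to CPM. Levels carry exact Poisson intervals and ratios exact conditional binomial intervals (95%, SciPy 1.17.1). They were run on simulated Poisson counts, the model they assume, which checks the calculation and not the spread between cells or mice. Genes with at least 100 UMIs over both libraries were measured, and counted when past 2-fold; a class needed 200 cells in each library for such a count and 50 for a level, except where cell numbers are stated. Clusters were made by the Leiden method in Scanpy 1.11.5, at resolution 1, from 15 neighbours in 40 components of 2000 variable genes. Positions came from the GENCODE annotation of GRCm38. All members with at least 100 UMIs were named; within a class, those past 2-fold and the 3 most abundant ligands and receptors, and up to 6 genes per pathway list with the largest ratio. Others named within a class, and in the endothelial-like, T cell-like and NK cell-like cells and clusters, were chosen after their values were seen. The members and lists were chosen with earlier results of these data known. The alternatives tried were other cell and gene filters, a doubled marker minimum, thinning to 1000 UMIs per cell, the mean of single-cell CPM, centring on the median gene and classes from clusters.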

Additional observations from a re-analysis of the deposited data

Results flagged for a closer look

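The receptors Tnfrsf21 and Tnfrsf11a lay in opposite directions in LLC-like cells and in phagocyte classes, with each interval apart from 0; the differences themselves were not tested. The log2 ratio of Tnfrsf21 was -0.29 in LLC-like, 0.50 in macrophage-like and 0.62 in monocyte-like cells, differences of 0.79 and 0.92. The log2 ratio of Tnfrsf11a was -0.19 in LLC-like, 0.26 in macrophage-like and 0.84 in monocyte-like cells, differences of 0.46 and 1.04. Both LLC-like readings were low, at 18.6% and 10.8% of the macrophage-like level for Tnfrsf21 and 3.07% and 2.24% for Tnfrsf11a, and with LLC-like clusters weighted equally, an alternative chosen after seeing the data, they were -0.06 and 0.39. After thinning, the LLC-like ratio of Tnfrsf21 was 0.20. With clusters in place of the marker classes, the ratio of Tnfrsf11a was 0.06 in the LLC clusters and -0.00 in the macrophage cluster.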

How the results depend on the processing

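No paired analysis was possible because each group has 1 library. Over all cells, the 3 genes past 2-fold became 7 with genes of at least 20 UMIs and 1 with genes of at least 500 UMIs. In LLC-like cells, the 2 genes past 2-fold became 5 at 20 UMIs, 1 with the marker minimum doubled and 0 in LLC-like clusters; the log2 ratio of Fasl was 0.22 after thinning. In macrophage-like cells the 0 became 1 after thinning, in clusters and at 20 UMIs, in monocyte-like cells 2 at 20 UMIs, and in fibroblast-like cells the 1 became 0 after thinning and in clusters and 3 at 20 UMIs. The number of genes with the same leading class in both libraries ran from 17 in clusters to 23 with the mean of single-cell CPM, against 20. Of those 20 genes, 15 kept their class in both libraries in clusters, 17 with the marker minimum doubled and 19 with the mean of single-cell CPM. Of the ratios whose interval left out 0, the direction held under every alternative run for 19 of 20 over all cells (the exception was Tnfsf9), 11 of 18 in LLC-like, 9 of 10 in macrophage-like, 4 of 4 in monocyte-like and 2 of 3 in fibroblast-like cells. The 7 lost in LLC-like cells were Fasl, Tnfsf14, Tnfrsf21, Tnf, Tnfrsf11a, Tnfrsf1b and Tnfsf10; the cause was not tested. Depth limits the neutrophil-like, dendritic cell-like, T cell-like and NK cell-like levels, most of which rest on fewer than 100 UMIs.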
